A study of Mus musculus with 28 samples.

Results

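The 9 genes described here encode laminin chains and other basement membrane proteins. They were chosen by name, with earlier results of these data known: Lama3, Lama5, Lamb1, Lamb2, Lamb3, Lamc1, Nid1, Hspg2 and Pxdn. All 9 were found once each among the 29413 genes of the BMP table and among the 55416 genes of the TGFb and mesenchymal tables. The title of the series poses the question which Tgfb superfamily members govern the last stage of enterocyte maturation at the tip of the villus. The data are mRNA sequencing of 28 mouse samples.

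Organoids, which are epithelial cultures grown from intestinal crypts in a gel matrix, came from wild-type C57BL/6 small intestine. All were first grown in ENR medium without any BMP or Tgfb ligand. The BMP table held 4 untreated control samples (numbered II, III, IV and VI) and 4 samples given BMP2 (the same numbers). It also held 3 given BMP3 (II, III and IV) and 3 each given BMP4, BMP5 or BMP7 (II, III and VI). The TGFb table held 3 untreated control samples and 3 given Tgfb. Each ligand was labelled as added at 500 ng/ml for 24 h. The mesenchymal table held 1 sample of freshly isolated duodenal cells from a PdgfraH2BeGFP mouse, whose Pdgfra locus drives a nuclear green fluorescent protein. Its other sample was such cells immortalised with the E6 gene of HPV16, selected with puromycin, sorted for high fluorescence and expanded. The sources used here give no age or sex, and nothing says whether numbered samples came from separate mice, so p-values measure the spread between these samples.

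A basement membrane is the thin sheet of matrix beneath an epithelium. Laminins are its cell-binding scaffold, each a trimer of 1 alpha, 1 beta and 1 gamma chain. Laminin-332, which holds the chains from Lama3 and Lamb3, anchors epithelial cells through integrins, above all in skin. Trimers with the alpha chain of Lama5 and the gamma chain of Lamc1 are widespread under adult epithelia, the gut included. Nidogen-1 (Nid1) links the laminin and collagen IV networks, perlecan (Hspg2) is a large heparan sulphate proteoglycan, and peroxidasin (Pxdn) forms the sulfilimine cross-links of collagen IV.

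The BMP table was sequenced to between 21363320 and 24779150 recovered reads per sample. The depth of the other tables, in TPM (transcript levels corrected for length and scaled to a common total), is unknown. All 7 epithelial markers were present in every organoid group, with a summed level of 121510 to 137140 normalized counts in controls and 682300 to 871900 with BMP2. Of 9 mesenchymal markers, the fibroblast genes Dcn, Lum and Twist2 were not listed or at 0 in the BMP table. The summed level of the list was 124.0 to 206.6 normalized counts in controls, mostly Vim. Its range was 71.7 to 91.8 for BMP2, 25.1 to 28.5 for BMP4, 134.6 to 184.0 for BMP5 and 68.1 to 103.9 for BMP7. Within that sum Vim went from 119 to 180 in controls to 31.6 to 37.6 with BMP2, while Pdgfra went from 0 to 1.78 up to 12.8 to 37.5. Col1a1 was at 10.2 to 20.5 with BMP2, beside 0.826 to 2.49 in 3 controls and 19.5 in control IV. Of 4 endothelial markers, Pecam1 had 569 to 774 normalized counts in controls, 789 to 988 with BMP2 and 865 to 1030 with BMP4. Cdh5 was at 0 in all controls and at 22.7 to 40.9 with BMP2, while Kdr and Tek stayed at no more than 8.0 in any group. The summed level of those 4 was 569.8 to 776.5 in controls, 837.6 to 1027.3 with BMP2 and 868.6 to 1032.4 with BMP4. In the organoids of the TGFb table Pecam1 was at 0.35 to 0.632 TPM. Smooth muscle, leukocyte and glial markers summed to at most 24.8, 24.9 and 22.2 normalized counts in controls. Their highest sums with a ligand were 102.8 (BMP7), 58.1 (BMP7) and 44.3 (BMP2). All 9 mesenchymal markers were present in the fresh mesenchymal cells (sum 17510.6 TPM), and 8 of 9 in the immortalised cells (sum 5938.6 TPM), where Twist2 was at 0. Epithelial markers summed to 33.8 TPM and 6.73 TPM there. In such bulk samples, fewer cells of a type and less RNA per cell cannot be told apart. Whether a shift in cell types had a part in the results that follow was not tested.

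Both laminin-332 genes among the 9 rose with every ligand tested except BMP3, with a larger log2 change for Lama3 than for Lamb3 each time. Lama3, the alpha chain gene, was low in untreated organoids, at 217, 139, 200 and 230 normalized counts. With BMP2 it stood at 28900, 23300, 30900 and 29100 normalized counts. The mean rose 142.7-fold, from 196.5 ± 40.3 to 28050 ± 3292 (SD, n = 4 each), a log2 change of 7.17 with a standard error of 0.266 (limma adjusted p = 2.19e-13). The BMP4 samples were at 747, 802 and 1360 normalized counts, the BMP5 samples at 3090, 7560 and 8410, and the BMP7 samples at 7250, 6420 and 8400. All of these lay above every control, and the order of the means was control, BMP4, BMP5, BMP7 and BMP2. For BMP4, BMP5 and BMP7 the log2 change of Lama3 was 2.27, 4.91 and 5.24 (limma adjusted p = 1.49e-06, 5e-09 and 2.15e-09). BMP5 and BMP7 were neighbours in that order whose samples overlapped (log2 difference -0.33, standard error 0.307, limma adjusted p = 1).

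Lamb3, the beta chain gene of laminin-332, was already at 1610, 1410, 1680 and 1340 normalized counts in controls. BMP2 samples were at 15300, 12500, 14000 and 18200. This was a 9.93-fold rise of the mean, from 1510 ± 161 to 15000 ± 2421 (SD, n = 4 each). The log2 change was 3.30 (limma adjusted p = 4.35e-12). The 3 BMP4 samples lay between 3420 and 3960, those of BMP5 between 3380 and 6720, and those of BMP7 between 4570 and 6720. The log2 changes were 1.31, 1.75 and 1.86 in that order (limma adjusted p = 4.78e-06, 1.74e-06 and 5.69e-07). Every treated sample of these ligands was above the highest control.

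Lama3 and Lamb3 both had their largest log2 change with BMP2 and their smallest of these 4 with BMP4. Across the 20 samples, log2 values of Lama3 had a Pearson r of 0.97 with those of Lamb3 and 0.96 with those of Lamc1. These points share ligand groups and scaling, so the coefficients only describe the table.

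**Figure D1:**
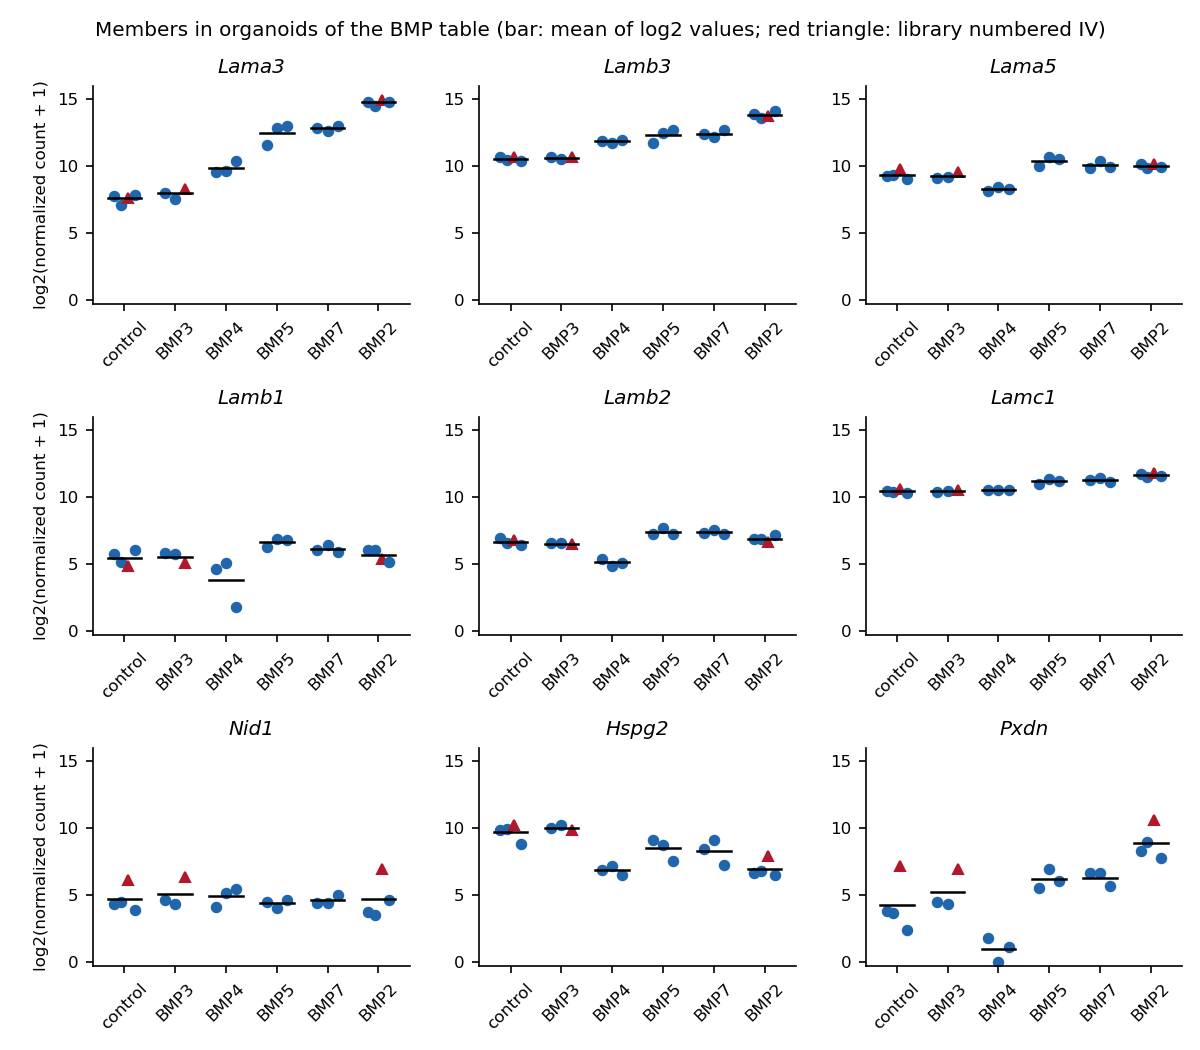
Each panel plots 1 of the 9 genes in the 20 organoid samples of the BMP table, as log2(normalized count + 1), by ligand; bars are means of the log2 values, and red triangles are the samples numbered IV. Lama3 and Lamb3 climb from control to BMP2, Hspg2 is lowest with BMP4 and BMP2, and the samples numbered IV are the highest of their group for Nid1 and Pxdn.

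Tgfb gave the same direction in a separate experiment. Lama3 was at 0.254, 0.181 and 0.258 TPM in controls and at 123.0, 128.4 and 159.4 TPM with Tgfb. The ratio of means was 593.1, and the log2 change on the log2(TPM + 1) scale was 6.80 (standard error 0.112, limma adjusted p = 1.71e-06). The controls lay under the added 1 TPM, and the log2 change ran from 4.75 to 8.69 when the processing was varied. Its size is therefore less certain than the standard error shows. Lamb3 went from 14.9, 15.9 and 13.4 TPM to 107.7, 112.9 and 140.0 TPM, a log2 change of 2.94 (limma adjusted p = 1.07e-05). No control and treated samples overlapped for either gene. The BMP and TGFb tables were scaled separately and in different units, so the sizes are set side by side and were not compared by a test.

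The regulatory sequence is shown for Lamb3 because it rose with BMP2, BMP4, BMP5 and BMP7 and has an entry in the promoter table used. It is the 250 bases before its first RefSeq start (GRCm38.p6, plus strand, chr1:193301744-193301993). Capitals mark a match to CAGACA, which holds the CAGA box that Smad proteins bind, here on the minus strand and starting 144 bases before the start.

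Lamb3 promoter: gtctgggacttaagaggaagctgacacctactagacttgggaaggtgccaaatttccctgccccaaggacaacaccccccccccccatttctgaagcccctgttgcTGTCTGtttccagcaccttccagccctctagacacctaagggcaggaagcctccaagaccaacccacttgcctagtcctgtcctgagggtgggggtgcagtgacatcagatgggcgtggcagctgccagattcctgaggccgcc

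Of 32851 promoter windows of this length, 17.1% held CAGACA on either strand, so the match is common. A second Lamb3 start listed by RefSeq held none of the motifs searched. The AP-1 motif TGANTCA was in 6.75% of all windows and in 0 of the 8 windows found for 7 of the 9 genes.

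The other laminin chains did not follow a single pattern. Lama5, the alpha chain gene of the widespread epithelial laminins, was at 611, 636, 879 and 524 normalized counts in controls. It rose to 1060, 1630 and 1480 with BMP5 (log2 change 1.07, limma adjusted p = 0.000223). It rose to 935, 1360 and 998 with BMP7 (log2 change 0.73, limma adjusted p = 0.00427). With BMP2 it was at 1120, 922, 1170 and 964 normalized counts (log2 change 0.67, limma adjusted p = 0.00127). With BMP4 it fell to 287, 351 and 308, below every control (log2 change -1.05, limma adjusted p = 5.07e-05). The rise with BMP2 depended on the scaling. Rescaling every sample to the same total moved the median of all genes by -0.45 with BMP2 and by -0.39 with BMP4, and the log2 change of Lama5 with BMP2 was then 0.22 (limma adjusted p = 0.295). That rescaling also moved the share of called genes that were higher from 48.9% to 31.8% for BMP2, from 51.7% to 31.1% for BMP4 and from 59.4% to 48.7% for BMP7. For BMP5 the share moved from 62.5% to 51.1% with quantile normalization.

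Lamc1, the common gamma chain gene, had a control mean of 1402.5 ± 118.4 normalized counts (SD, n = 4). It rose to 3242.5 ± 277.7 with BMP2 (SD, n = 4; log2 change 1.21, limma adjusted p = 4.28e-10). It rose less with BMP5 (2070, 2690 and 2340) and BMP7 (2470, 2740 and 2300), with log2 changes of 0.75 and 0.84 (limma adjusted p = 1.31e-05 and 2.73e-06). BMP4 samples, at 1500, 1510 and 1490, overlapped the controls (log2 change 0.10, limma adjusted p = 0.368). That value turned to -0.30 with samples rescaled to the same total (limma adjusted p = 0.0228) and to -0.12 with quantile normalization.

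The beta chain genes Lamb2 and Lamb1 were low in the organoids. Lamb2 had 120, 95.4, 110 and 85.1 normalized counts in controls and fell to 41.5, 28.5 and 32.3 with BMP4 (log2 change -1.57, limma adjusted p = 2.62e-07). It rose to 154, 206 and 150 with BMP5 (log2 change 0.72, limma adjusted p = 0.00447). It rose to 158, 188 and 149 with BMP7 (log2 change 0.68, limma adjusted p = 0.00512). BMP2 samples lay between 98.8 and 140, overlapping the controls (log2 0.20, limma adjusted p = 0.257); this value was -0.25 with samples rescaled to the same total and 0.66, past the threshold, with quantile normalization (limma adjusted p = 0.153 and 0.00154).

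Lamb1 had 27.5 to 64.4 normalized counts in controls. It was at 23.7, 33.1 and 2.39 with BMP4 (log2 change -1.62, limma adjusted p = 0.0144), and the groups overlapped. Without the BMP4 sample numbered VI the change was -0.59 and did not pass (limma adjusted p = 0.157). BMP5 samples, at 76.2, 116 and 109, were all above the controls, with a log2 difference of 1.19 that did not pass in limma (adjusted p = 0.12). On reads recovered from the values, edgeR and DESeq2 called it (adjusted p = 0.044 and 0.0178). BMP2 and BMP7 samples overlapped the controls, with log2 differences of 0.21 and 0.66 (limma adjusted p = 0.718 and 0.371).

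**Figure D2:**
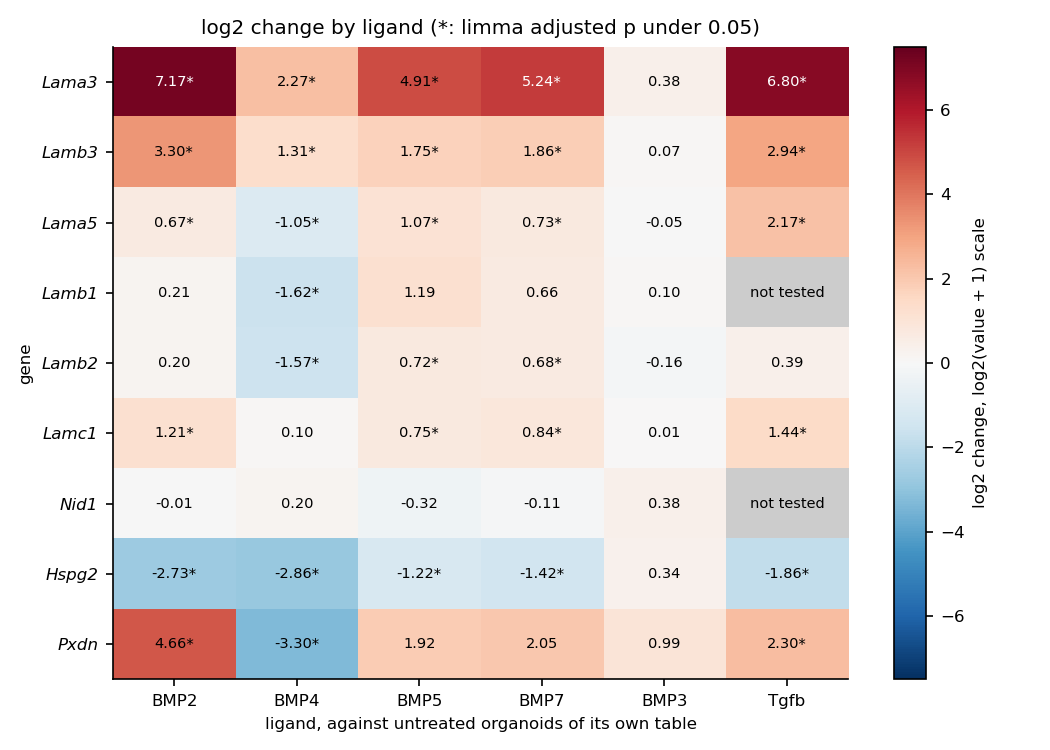
The colour and number in each cell give the log2 change of a gene (rows) with a ligand (columns) against untreated organoids of the same table, and an asterisk marks a limma adjusted p under 0.05. Lama3 and Lamb3 carry an asterisk and a positive value with every ligand but BMP3, Hspg2 a negative one with every ligand but BMP3, and Lama5, Lamb1, Lamb2 and Pxdn a negative one with BMP4.

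Among the remaining basement membrane genes, Hspg2 fell with every ligand tested except BMP3. Hspg2 was at 936, 975, 1180 and 444 normalized counts in controls. It was at 101, 111, 236 and 91.1 with BMP2, and at 116, 140 and 91.0 with BMP4. All of these were below every control. The log2 changes were -2.73 with BMP2 (limma adjusted p = 6.16e-06) and -2.86 with BMP4 (1.38e-05). Without samples numbered IV the change with BMP2 was -2.87. The difference between BMP2 and BMP4 was 0.13 with a standard error of 0.437 (limma adjusted p = 0.811). BMP5 samples (559, 433 and 188) and BMP7 samples (353, 561 and 150) overlapped the controls as groups. Each of these samples was below the control of its own number (II, III and VI). The log2 change with BMP5 was -1.22 (limma adjusted p = 0.0472), and it did not pass without BMP5 sample III or VI or without control II, III or IV (limma adjusted p = 0.0761 to 0.29). With BMP7 it was -1.42 (limma adjusted p = 0.0182). It was -0.90 without BMP7 sample VI and -1.25 without control IV, and passed in neither case (limma adjusted p = 0.145 and 0.0527). A replicate block, which pairs samples by number, gave log2 changes of -1.05 with BMP5 and -1.25 with BMP7. Both passed (limma adjusted p = 0.0056 and 0.00129). With Tgfb, Hspg2 fell from 6.4, 7.45 and 5.52 TPM to 1.03, 0.995 and 1.09 TPM (log2 change -1.86, limma adjusted p = 7.56e-05).

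The Hspg2 promoter is shown because the gene fell with each of those ligands. It is the 250 bases before the RefSeq start (GRCm38.p6, plus strand, chr4:137468553-137468802). Capitals mark GGCGCC, a GC-rich element known to be bound by Smads of the BMP branch, which reads the same on both strands and starts 117 bases before the start.

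Hspg2 promoter: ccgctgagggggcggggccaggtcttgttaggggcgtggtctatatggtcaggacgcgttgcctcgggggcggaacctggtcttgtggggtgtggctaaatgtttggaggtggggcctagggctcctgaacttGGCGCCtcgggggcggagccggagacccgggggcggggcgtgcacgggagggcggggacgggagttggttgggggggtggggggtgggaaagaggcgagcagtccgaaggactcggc

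GGCGCC was found in 9.59% of all promoter windows. It was also in the windows of Lama5, Lamb1 and Pxdn, while CAGACA was also in those of Lamb2 and Pxdn. A match is a run of letters and not evidence that a factor binds.

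Pxdn moved in opposite directions with BMP2 and BMP4. It was at 13.3, 11.6, 145 and 4.13 normalized counts in controls, and at 320, 500, 1580 and 216 with BMP2 (log2 change 4.66, limma adjusted p = 6.26e-05). Within both groups the sample numbered IV was the highest. Without all samples numbered IV, the means were 9.68 in controls and 345.3 with BMP2, and the log2 change was 5.07 (limma adjusted p = 3.37e-07). The BMP4 samples held 2, 0 and 1 reads of Pxdn (limma adjusted p = 0.00385). The control mean was 36.6 times the BMP4 mean, with a 95% interval of 12.5 to 177.3 for counting error in the 3 BMP4 reads only. Without control IV the ratio was 8.13 (2.78 to 39.4). BMP5 samples were at 44.0, 125 and 65.7, and BMP7 samples at 98.0, 99.3 and 49.1 normalized counts. These were above 3 of the 4 controls but below control IV, and their log2 differences of 1.92 and 2.05 did not pass (limma adjusted p = 0.135 and 0.0945). With the replicate number as a block, which pairs the samples, they passed, at 2.67 and 2.80 (limma adjusted p = 0.000353 and 0.000187). With Tgfb, Pxdn rose from 0.917, 0.882 and 0.753 TPM to 8.86, 6.29 and 9.40 TPM (log2 change 2.30, limma adjusted p = 7.31e-05).

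The Pxdn promoter is shown because the gene had its highest values with BMP2 and almost no reads with BMP4. It is the 250 bases before the RefSeq start (GRCm38.p6, plus strand, chr12:29937786-29938035). Capitals mark CAGACA on the plus strand, starting 129 bases before the start, and GGCGCC, starting 46 bases before it.

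Pxdn promoter: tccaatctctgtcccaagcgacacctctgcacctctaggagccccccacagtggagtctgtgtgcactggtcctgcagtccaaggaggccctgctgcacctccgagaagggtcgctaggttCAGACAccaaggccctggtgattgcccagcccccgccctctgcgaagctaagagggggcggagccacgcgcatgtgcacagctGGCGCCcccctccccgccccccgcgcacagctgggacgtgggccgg

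Nid1 passed the test with no BMP ligand, and it was under the filter on low values in the TGFb table. Controls numbered II, III and VI had 18.6, 21.6 and 14.0 normalized counts and control IV had 70.1. BMP2 samples II, III and VI had 12.5, 10.2 and 24.0, and sample IV had 122. BMP3 samples II and III had 23.1 and 18.6, and sample IV had 82.3. The BMP4, BMP5 and BMP7 groups, which have no sample numbered IV, lay between 15.7 and 43.1. The samples numbered IV were thus 3.25, 5.08 and 3.56 times the highest other sample of their group for Nid1. For Pxdn they were 10.9, 3.16 and 5.87 times the highest other. Among mesenchymal genes, Col1a2 was also highest in sample IV of each group, at 5.32 normalized counts in control (0 to 0.83 in the others), 16.5 with BMP2 (0 to 1.27) and 2.63 with BMP3 (0 to 0.845). Col1a1 was at 19.5 in control IV, beside 0.826 to 2.49 in the other controls, while sample IV lay within the range of its group with BMP2 (16.5) and BMP3 (2.63). Lama4 was at 8.87 in control IV (1.66 to 3.3 in the others) and 7.88 in BMP3 sample IV (1.69 and 1.78), but at 1.18 in BMP2 sample IV (0 to 2.56). Col3a1 was at 0, 1.18 and 4.38 in the control, BMP2 and BMP3 samples numbered IV and at 0 in the others of those groups. What set the samples numbered IV apart was not tested.

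With BMP3 none of the 9 genes was called, and 0% of the 14746 genes tested were called in limma, where 110 had an unadjusted p under 0.05. That fit did not pair the samples. With the replicate block 261 genes had an unadjusted limma p under 0.05, and 0 were called. DESeq2 called 1 gene. The log2 differences of the 9 genes ranged from -0.16 to 0.99, and the smallest unadjusted p among them was 0.208. For Lama3, BMP3 samples had 259, 190 and 320 normalized counts, beside 139 to 230 in controls.

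This list and those further below were chosen with earlier results of these data known, so their shares and medians only describe them. Counted over the list, 6 of 9 genes were called for BMP2, beside 75.1% of all genes tested. Of the 9, 5 were higher and 1 lower, beside 36.8% and 38.4% of all genes. For BMP4, 7 of 9 were called, beside 65.1%, with 2 higher and 5 lower, beside 33.7% and 31.4%. For BMP5, 6 of 9 were called, beside 26.3%, with 5 higher and 1 lower, beside 16.5% and 9.87%. For BMP7, 6 of 9 were called, beside 32.4%, with 5 higher and 1 lower, beside 19.2% and 13.2%. With the replicate block 7 of 9 were called for both, Pxdn being added, beside 38.9% of all genes for BMP5 (21.3% higher, 17.6% lower) and 45.4% for BMP7 (24.0% higher, 21.3% lower). The BMP5 calls over all genes dropped from 3884 to 2515 without BMP5 sample III and to 2532 without sample VI. For Tgfb, 6 of the 7 that passed the filter on low values were called, beside 56.7%, with 5 higher and 1 lower, beside 27.4% and 29.3%. Lama3 and Pxdn, under 1 TPM in the controls there, passed that filter through the treated samples. The members' shares were 66.7% for BMP2 and 77.8% for BMP4. The median log2 change of the 9 genes was 0.67, -1.05, 1.07 and 0.73 for BMP2, BMP4, BMP5 and BMP7. The medians of all genes tested were -0.03, 0.04, -0.03 and -0.05. Under the filter in the TGFb table were Lamb1 (0.217 to 0.254 TPM in controls, 1.03 to 1.55 with Tgfb) and Nid1 (0.0725 to 0.116 and 0.261 to 0.695). Without a filter their log2 differences were 0.89 and 0.39 (limma adjusted p = 0.00196 and 0.051).

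The ligands were then compared directly. BMP2 samples were higher than BMP4 samples for 7 of the 9 genes and lower for 0. Of all genes, 66.8% were called, 33.4% in each direction. The log2 difference was 4.90 for Lama3, 1.99 for Lamb3, 1.72 for Lama5, 1.77 for Lamb2 and 1.11 for Lamc1 (limma adjusted p at most 1.05e-07). Lamb1 differed by 1.83 (limma adjusted p = 0.00647), and by 0.80 without BMP4 sample VI (0.0554). For Pxdn the BMP2 mean was 549.6 times that of BMP4 (counting interval 188.1 to 2665.0), and 290.2 times without BMP2 sample IV.

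Between BMP4 and BMP7, 8 of the 9 genes were lower with BMP4 and 0 higher. Of all genes, 59.8% were called, 31.4% lower and 28.4% higher. The log2 differences ran from -0.55 for Lamb3 (limma adjusted p = 0.0207) and -0.73 for Lamc1 to -2.97 for Lama3 and -5.34 for Pxdn (limma adjusted p = 0.000117), whose BMP4 value rests on 3 reads. The Lamb3 difference did not pass without BMP4 sample III or BMP7 sample VI (limma adjusted p = 0.0725 and 0.111). The Hspg2 difference was -1.44, and without BMP7 sample III it was -1.01 and did not pass (limma adjusted p = 0.0873).

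Between BMP2 and BMP7, 4 genes were higher with BMP2 and 2 lower. Of all genes, 62.8% were called, 31.4% in each direction. Lama3 was 1.93 and Lamb3 1.44 higher in log2 terms (limma adjusted p = 1.2e-05 and 1.89e-06). Lamc1 was 0.37 higher (limma adjusted p = 0.00228), which became -0.02 with samples rescaled to the same total. Pxdn was 2.61 higher (limma adjusted p = 0.0184). Without BMP2 sample IV or BMP7 sample VI it was 2.04 and 2.28 higher and did not pass (limma adjusted p = 0.0664 and 0.0702). Lamb2 was lower by -0.48 (limma adjusted p = 0.0211) and Hspg2 by -1.31 (0.0145), and without BMP7 sample III neither passed (0.103 and 0.113). Lama5 did not differ past the threshold (-0.06, standard error 0.18). BMP5 and BMP7 differed past the threshold for 0 of the 9 genes, beside 0.0136% of all genes (0.00678% in each direction), with log2 differences from -0.33 to 0.53 and an unadjusted p of 0.0973 or more.

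Ratios within a sample do not depend on how samples are scaled. Between genes, normalized counts are not corrected for length, so only the change of a ratio from its control mean is given for the BMP table. The log2 ratio of Lama3 to Lama5 rose by 6.50 for BMP2 (6.41 to 6.67 over 4 samples). It rose by 3.32 for BMP4, 3.84 for BMP5 and 4.51 for BMP7. The 4 controls lay between -0.44 and 0.56 around their mean. The ratio of Lamb3 to Lamb2 rose by 3.09 for BMP2, 2.90 for BMP4, 1.02 for BMP5 and 1.17 for BMP7. BMP3 samples were also above every control for this ratio, by a small amount (0.13 to 0.33, beside -0.14 to 0.09 in controls). With BMP4 both terms moved, since Lamb3 rose and Lamb2 fell. The ratio of Lamb3 to Lamb1 rose by 3.09 for BMP2 (2.41 to 3.87) and by 3.1 for BMP4 (1.55 to 5.55). With BMP5 and BMP7 the ratio of Lamb3 to Lamb1 overlapped the controls. No test was attached to these ratios.

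**Figure D3:**
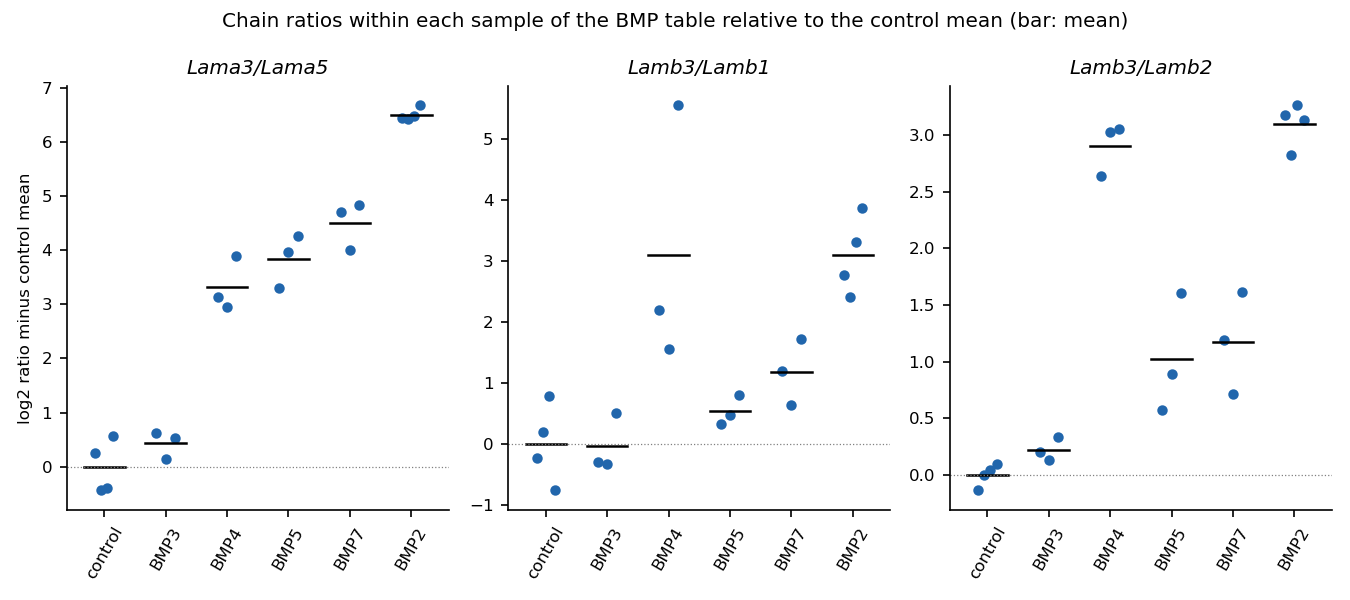
Each panel plots, for the 20 samples of the BMP table, the log2 ratio of a laminin-332 chain to another chain of its kind, minus the mean of the 4 controls; bars are group means. The ratio of Lama3 to Lama5 sits between 2.94 and 6.67 above the control mean with BMP4, BMP5, BMP7 and BMP2, and the ratio of Lamb3 to Lamb2 is similar for BMP4 (2.90) and BMP2 (3.09).

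Levels per length can be compared between genes in the TPM tables. In untreated organoids Lamb3 was the highest of the 9 genes at 14.7 ± 1.25 TPM (SD, n = 3), followed by Lamc1 (9.11 ± 1.26) and Hspg2 (6.46 ± 0.967). Lama3 stood at 0.231 ± 0.0432 TPM. With Tgfb the order among the 9 became Lama3 (137.0 ± 19.7 TPM), Lamb3 (120.2 ± 17.3) and Lamc1 (26.4 ± 1.72). Lama5 went from 2.50, 3.80 and 3.53 TPM to 25.9, 15.5 and 14.7 TPM (log2 change 2.17, limma adjusted p = 0.000427). Lamc1 went from 7.67, 9.66 and 10.0 TPM to 27.0, 24.5 and 27.8 TPM (log2 change 1.44, limma adjusted p = 0.0001). Lamb2 overlapped, with 2.29 to 4.51 TPM in controls and 3.24 to 6.28 with Tgfb (log2 0.39, limma adjusted p = 0.256). The log2 ratio of Lama3 to Lama5 went from -3.82 to 2.91, so the alpha chain with the higher level changed.

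In the mesenchymal cells Lama3 and Lamb3 were close to 0. Each mesenchymal group is 1 sample, so the values carry no test and no spread. Lama3 was at 0.0202 TPM in fresh and 0.0581 TPM in immortalised cells. Lamb3 was at 0.0579 and 0.0548 TPM. The mean of untreated organoids was 253.9 times the fresh mesenchymal value for Lamb3 and 11.4 times for Lama3. The Tgfb-treated mean was 2076 times and 6782 times that value. Organoid and mesenchymal values were scaled separately, and these ratios divide by values close to 0 at an unknown depth, so their sizes are rough.

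The other 7 genes were higher in both mesenchymal samples than in any organoid sample of the TGFb table. Nid1 was the highest of the 9, at 389.3 TPM fresh and 326.8 TPM immortalised, at percentiles 97.8 and 97.2 of the genes with at least 1 TPM. Hspg2 followed at 250.3 and 294.1 TPM. Lamb1 was at 202.0 and 89.7 TPM, Lamc1 at 173.3 and 101.8 TPM, and Lamb2 at 123.3 and 115.6 TPM. Pxdn was at 92.0 and 34.3 TPM, and Lama5 at 77.6 and 31.9 TPM. Against the mean of untreated organoids, the fresh sample was 4150 times as high for Nid1, 855.9 times for Lamb1 and 108.2 times for Pxdn. It was 38.7 times as high for Hspg2, 36.3 times for Lamb2, 23.7 times for Lama5 and 19.0 times for Lamc1. The organoid means of Nid1, Lamb1 and Pxdn were only 0.0938, 0.236 and 0.85 TPM, so their ratios are rough. From fresh to immortalised cells, Pxdn, Lama5 and Lamb1 were 2.68, 2.43 and 2.25 times higher in the fresh sample, while Nid1, Hspg2 and Lamb2 were within 1.19 times of each other.

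Laminin chains outside the 9 were also measured. Lama1, Lama2 and Lama4 were at 22.7, 30.0 and 49.5 TPM in fresh cells and at 0.372, 2.62 and 3.89 TPM in immortalised cells. In organoids of the TGFb table none of these 3 reached 0.4 TPM, and Lamc3 was listed at 0 in all 6 samples. Lama5 and Lama4 thus had the highest alpha chain values in fresh cells, and Lama5 in immortalised cells.

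**Figure D4:**
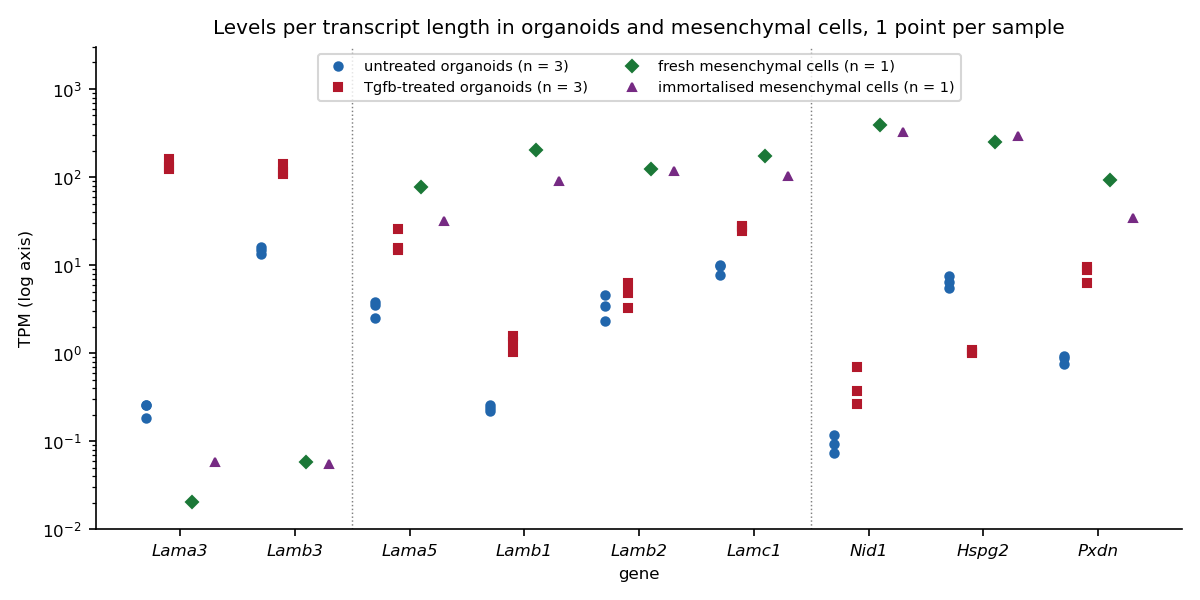
Points give TPM on a log axis for the laminin-332 genes (left), other laminin chains (middle) and other basement membrane genes (right), with 1 point per sample, in 3 untreated and 3 Tgfb-treated organoid samples and 2 mesenchymal samples. Lama3 and Lamb3 are under 0.1 TPM in both mesenchymal samples and over 100 TPM with Tgfb, while the other 7 genes are highest in the mesenchymal samples.

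Of 10 listed receptors and anchors that hold epithelial cells to laminin, 9 passed the filter in each table. With BMP2, 7 of the 9 were called higher and 1 lower, beside 36.8% and 38.4% of all genes. With BMP4, 6 were called higher (33.7% of all genes) and 0 lower. Called higher were 8 with BMP5 (16.5% of all genes), 8 with BMP7 (19.2%) and 8 with Tgfb (27.4%), and 0 were lower. The median log2 change of the list was 2.52, 0.88, 0.82, 0.88 and 1.31 for BMP2, BMP4, BMP5, BMP7 and Tgfb, beside -0.03, 0.04, -0.03, -0.05 and -0.04 over all genes tested. Itgb4 and Itga6 encode the integrin of hemidesmosomes that binds laminin-332. Itgb4 rose in log2 terms by 2.73 (BMP2), 1.34 (BMP4), 1.31 (BMP5), 1.58 (BMP7) and 2.25 (Tgfb). Itga6 rose by 1.45 with BMP2 and 0.90 with Tgfb, and its 0.30 with BMP4 did not pass (limma adjusted p = 0.0574). The integrin genes Itga3 and Itgb1 rose with BMP2 (1.75 and 2.54), BMP4 (1.15 and 0.68), BMP5 (0.65 and 0.87) and BMP7 (0.75 and 1.0). Plec, the hemidesmosome linker plectin, rose most of the list with BMP2 (2.83), BMP4 (2.0) and Tgfb (2.65). Dag1, dystroglycan, was the one that fell with BMP2 (-0.35, limma adjusted p = 0.00867) and was called with no other ligand. Bcam, a laminin receptor of the immunoglobulin family, did not pass with BMP2 or BMP4 (0.23 and -0.33, limma adjusted p = 0.214 and 0.106). Bcam was called higher with BMP5 and BMP7 (0.87 and 0.75, limma adjusted p = 0.00118 and 0.00309).

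Of 19 other basement membrane components, 12 passed the filter in the BMP table. For BMP2, 3 rose and 6 fell, beside 36.8% and 38.4% of all genes. For BMP4 and BMP5, 3 rose and 4 fell, beside 33.7% and 31.4% for BMP4 and 16.5% and 9.87% for BMP5. For BMP7, 3 rose and 5 fell, beside 19.2% and 13.2%. The list's median log2 change was -0.74, 0.38, -0.18 and -0.48 for BMP2, BMP4, BMP5 and BMP7. Col18a1, collagen XVIII, went from 45.6 to 1212.5 normalized counts with BMP2 (log2 change 4.73), and Tinagl1, which encodes a secreted laminin-binding protein, from 363.2 to 3267.5 (3.15). Smoc2, which encodes a secreted calcium-binding matrix protein, fell from 6512.5 to 45.5 (-7.29). Frem2, of the Fraser complex, fell from 23.4 to 0.615 normalized counts (-3.83). Its group mean was above 10 only in controls (23.4), with BMP3 (23.4) and with BMP5 (11.3). Frem2 thus passed the filter through those groups, and it is among the genes counted as fallen for BMP2, BMP4 and BMP7. No BMP2 sample was above 1.28 for Frem2, so the size of its fall rests on very few reads. With BMP4, Tinagl1 (1.69) and Agrn (0.85), which encodes agrin, rose most, and Smoc2 (-4.98) fell most. With Tgfb 9 were tested, and the largest changes were those of Tinagl1 (3.30), Col18a1 (3.06) and Smoc2 (-3.33). Of the 9, 5 rose and 3 fell, but Col18a1, Col15a1 and Fras1 were under 1 TPM in the controls (means 0.139, 0.196 and 0.751) and passed the filter through the treated samples. Ntn4, at 0.35 TPM with Tgfb, passed it through the controls. The main collagen IV genes, Col4a1 and Col4a2, were called with no BMP (for BMP2, log2 0.63 and 0.77, limma adjusted p = 0.405 and 0.318). Both were highest in the sample numbered IV of the control, BMP2 and BMP3 groups. For Col4a1 that sample was at 245 normalized counts in control (48.1 to 110 in the others), 553 with BMP2 (66.5 to 161) and 345 with BMP3 (41.4 and 82.7). Col4a1 and Col4a2 were at 2617.6 and 885.4 TPM in fresh mesenchymal cells and at no more than 1.10 and 0.649 TPM in the organoids of the TGFb table.

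Of 9 enzymes and chaperones of matrix assembly, 7 passed the filter. Loxl2, a lysyl oxidase that cross-links collagen IV, rose from 15.9 to 864.0 normalized counts with BMP2 (log2 change 5.66). It rose also under BMP5 (1.93) and BMP7 (2.26), but fell with BMP4 (-0.88, limma adjusted p = 0.0314). With Tgfb it went from 0.0516 to 2.55 TPM (log2 change 1.76), and it passed the filter there through the treated samples. Bmp1, a protease that processes laminin and collagen precursors, rose by 3.37 (BMP2), 1.73 (BMP5), 1.87 (BMP7) and 3.01 (Tgfb). Its BMP4 difference of 0.11 did not pass (limma adjusted p = 0.754). Plod2, a lysyl hydroxylase, fell with BMP2 (-2.96, limma adjusted p = 8.53e-05). Of the 7, 2 rose and 1 fell for BMP2, beside 36.8% and 38.4% of all genes, and 0 rose and 2 fell for BMP4, beside 33.7% and 31.4%. For BMP5 and BMP7, 2 rose each (16.5% and 19.2% of all genes) and 0 fell. For Tgfb, 4 rose, Loxl2 among them, and 0 fell, beside 27.4% and 29.3%.

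Genes with a pattern over the 20 samples of the BMP table close to that of a member were named by Pearson r of log2 values among the 14746 genes tested. For Lama3 they included Vill (0.995) and Anxa8 (0.993). For Lamb3 they were Capn2 (0.991), Anxa3 (0.99) and Sfn (0.99). For Pxdn they were Tead1 (0.958), Hspa4l (0.945) and Chd4 (0.941). For Lamb1 the closest were Entpd3 (0.883), Slc12a8 (0.874) and Gga2 (0.861). All points share the ligand groups, so these coefficients describe the likeness only.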

How the data were processed

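The deposited values of the BMP table were a signal, read counts per gene scaled by a size factor of each sample, as read from the values. They carry at most 3 significant digits. Of 180721 values up to 20 reads, 100% were whole multiples of what 1 read was worth (0.826 to 1.28 normalized counts; tolerance 0.03 reads, rising to 0.15 at 20 reads). Values above 999 reads, 21% of those above 0, are known to 3 digits only. The other 2 tables were deposited in TPM, each column summing to 1000000. Trim Galore, Salmon, DESeq2 and GRCm39 are named in the submitters' processing notes, without roles or versions.

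Tests used limma 3.58.1 (R 4.3.3) on log2(value + 1), two-sided, with Benjamini-Hochberg adjustment over all genes and a threshold of 0.05. Folds on that scale understate the change of low genes. Genes needed a mean of at least 10 normalized counts (14746 of 29413) or 1 TPM (12959 of 55416). All 6 BMP-table groups were fitted together. The design foresaw edgeR had the tables held raw counts. edgeR 4.0.16 and DESeq2 1.42.0 on recovered reads were alternatives; edgeR called 11107 genes for BMP2, 9666 for BMP4, 4199 for BMP5, 5037 for BMP7 and 0 for BMP3. The scripts were tested on simulated data.

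Same-numbered samples deviated together for BMP3, BMP4, BMP5 and BMP7 against control, BMP4 against BMP7 and BMP5 against BMP7 (every r from 0.15 to 0.553 over 3 pairs). Elsewhere the lowest r was -0.107. A replicate block was an alternative.

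The members and lists were chosen with earlier results of these data known. All 9 members were named, and from each list up to 2 called genes with the largest rise and 2 with the largest fall, the laminin chains and the integrins, with Col4a1 and Col4a2 named after their values were seen. Results on 2 genes that these rules name are not reported here. The 3 motifs were kept from 5 tried after the promoter sequences had been read. RefSeq promoters (GRCm38.p6) were used as sequence only, since the files' build is GRCm39. Counting intervals cover counting error only, since PCR copies were not marked by molecular identifiers. Sequencing was in more than 1 run, and samples were not assigned to runs in the labels' protocols.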

Additional observations from a re-analysis of the deposited data

Results flagged for a closer look

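In groups of 4 samples, 18 combinations of a member and a group (control or BMP2) were examined for a sample far from the others, by Dixon's ratio with a critical value of 0.829. Chance flags about 1 in 20, and 4 were flagged, all in samples numbered IV. Nid1 stood at 70.1 normalized counts in control IV, beside 14.0 to 21.6 in the other controls. Nid1 stood at 122 in BMP2 sample IV, beside 10.2 to 24.0. Pxdn stood at 145 in control IV, beside 4.13 to 13.3. Hspg2 stood at 236 in BMP2 sample IV, beside 91.1 to 111.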

How the results depend on the processing

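Of 63 member results with a tested log2 value, 43 kept their direction and their side of the threshold in every alternative run. Of their 1096 values under alternatives, 1047 did so, 27 no longer passed, 11 newly passed and 11 changed sign. These tallies leave out Nid1, dropped after many sign changes had been seen (32 of 119 alternative fits, 1 of them called), and the BMP3 and BMP5 against BMP7 comparisons. Leaving out samples numbered IV was chosen after seeing the data. Sign changes with samples rescaled to the same total were Lamb1 (-0.24) and Lamb2 (-0.25) with BMP2, Lamc1 with BMP4 (-0.30) and Lamc1 in BMP2 against BMP7 (-0.02). Lamc1 with BMP4 was also -0.12 with quantile normalization and 0.0 (negative before rounding) in edgeR. Hspg2 in BMP2 against BMP4 was -0.04 with the replicate block and -0.18 without samples numbered IV, and ran from -0.18 to 0.28 leaving out 1 sample at a time. Lama5 in BMP2 against BMP7 ran from -0.17 to 0.10 that way. The cause was not tested.

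Members called in BMP2 against BMP7 were 3 with quantile normalization. Genes called with BMP3 were 1 in DESeq2, 3 with only the groups compared in the fit, and 0 to 1 leaving out 1 sample. With BMP5 they ran from 2515 to 4298 leaving out 1 sample. In BMP5 against BMP7 they were 0 with a pseudocount of 0.1 or a stricter filter, 4 with a pseudocount of 5, no filter or edgeR, 1 with either rescaling or without samples numbered IV, 6 with the replicate block, 23 in DESeq2, and 0 to 9 leaving out 1 sample. The block changed no other member call beside those of Pxdn given above, except Lamb2 with Tgfb (0.39, limma adjusted p = 0.0257), where the numbers only name samples. With a pseudocount of 1 before the ratio, Lama3 to Lama5 became -1.79 in untreated organoids of the TGFb table, -6.27 in fresh and -4.96 in immortalised cells. Lamb3 to Lamb1 became 3.67 untreated, 5.71 with Tgfb, -7.58 fresh and -6.43 immortalised. Lamb3 to Lamb2 became -6.88 and -6.79 in fresh and immortalised cells. Depth limits Pxdn with BMP4, which rests on 3 reads, and Frem2 with BMP2, at 0 to 1.28 normalized counts. It also limits Lama3 in untreated organoids of the TGFb table, and Lama3 and Lamb3 in mesenchymal cells, where the depth is unknown.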
